A study of Mus musculus with 5 samples.

Results

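The Schlafen genes examined here are the 7 mouse family members Slfn1, Slfn2, Slfn3, Slfn4, Slfn5, Slfn8 and Slfn9, taken by gene symbol from tables that list 19726 symbols per library. RNA came from wild-type C57/Bl6j mice aged 7 weeks and was labelled as CD4+ T cells isolated from MC38 tumor (n = 2 libraries, replicates 2 and 3) or from spleen (n = 3 libraries, replicates 1, 2 and 3). MC38 cells derive from a mouse colon carcinoma. No sort, gate or bead step is stated for the isolation. The labels do not tie libraries to single mice, so the p-values below cover only library-to-library spread, which may be technical. That spread is largely pooled over all tested genes. The unit is TPM, a transcript's share of all transcripts after allowing for its length. The study asked how the tumor environment alters gene expression and splicing. The 7 genes were chosen because of their levels in these same tumor and spleen libraries, so their differences between the tissues are described without a test.

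Schlafen proteins, named after the German word for sleeping, were first described in mice as regulators of thymocyte growth. They share an N-terminal core that can bind or cut RNA, tRNA included, and fall into short, intermediate and long forms, the long ones adding a helicase-like domain. In mouse immune cells several family members are induced by type I interferon, and Slfn2 is needed for the quiescence of T cells.

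The tumor libraries did not look like purified T cells by their markers. All 13 listed T cell markers were lower in both tumor libraries than in all 3 spleen libraries, with sums of 259 to 334 TPM in tumor and 1080 to 1460 TPM in spleen. Cd4, the co-receptor that names these cells, was at 26.8 and 27.2 TPM in tumor and at 97.7 to 131 TPM in spleen. All 16 macrophage and monocyte markers were higher in both tumor libraries, with sums of 7110 and 7620 TPM in tumor and 31.6 to 43.3 TPM in spleen. None of these genes was listed at 0 in every library of a tissue. The neutrophil sum was 70.1 and 76.4 TPM in tumor and 20.3 to 25.2 TPM in spleen, with 2 of 10 markers higher and 3 lower without overlap, and 1 marker at 0 in both tumor libraries. Without Csf3r, its highest gene in tumor, that sum was 16.9 and 18.6 TPM in tumor and 19.7 to 24.2 TPM in spleen. Dendritic cell markers, with 3 of 8 higher and 2 lower without overlap, summed to 117 and 166 TPM in tumor and 51.5 to 60.7 TPM in spleen. Without Itgax, which macrophages also express, they summed to 29.2 and 30.4 TPM in tumor and 49.3 to 58.5 TPM in spleen. Endothelial markers, with 2 of 5 higher and 1 lower without overlap, summed to 89.8 and 99.2 TPM in tumor and 58.9 to 70.3 TPM in spleen. Without Pecam1, their highest gene in tumor, they summed to 35.0 and 36.1 TPM in tumor and 1.42 to 2.86 TPM in spleen. Erythroid and platelet markers summed to 98.4 and 125 TPM in tumor and 8.87 to 13.4 TPM in spleen. The platelet gene Pf4 alone made 81.7 and 107 TPM of these tumor sums. Sums for B cells, NK cells, CD8 T cells, epithelial cells and fibroblasts stayed at or below 35.7 TPM in every library. In bulk RNA, fewer cells of a type and less RNA per cell cannot be told apart. The part that myeloid RNA has in the Schlafen values below was not tested.

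All 7 genes lie in 1 cluster on chromosome 11 (GRCm38, the assembly also called mm10), which spans 335.4 kb and holds 9 annotated Schlafen loci. In GENCODE M21 the order from the left end is Slfn5 (chr11:82951349-82964840, plus strand), Slfn9 (chr11:82978390-82991830, minus strand), Slfn8 (chr11:83002158-83020810, minus strand), Slfn2 (chr11:83065112-83070678, plus strand), Slfn1 (chr11:83116849-83122670, plus strand), Slfn4 (chr11:83175186-83190216, plus strand) and Slfn3 (chr11:83191330-83215154, plus strand). The longest annotated coding sequence is 1011 nt in Slfn1 and 1134 nt in Slfn2, the short forms. It is 1806 nt in Slfn4 and 1920 nt in Slfn3, the intermediate forms. It is 2652 nt in Slfn5 and 2730 nt in both Slfn8 and Slfn9, the long forms. Slfn4 and Slfn3 lie side by side and were 92.7% identical over 1785 aligned coding bases, and Slfn9 and Slfn8 were 92.7% identical over 2730. Every other pair lay between 63.1% and 77.0%.

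Among the 7 genes, exact matches to the motifs searched differed between the annotated promoter windows of the long forms and those of the others. RefSeq windows (GRCm38.p6) were found for all 7 genes, and the 250 bases before each start were searched on both strands for GAAA followed, after any 2 bases, by another GAAA, the core of the interferon-stimulated response element, and for ACTTCC, a core bound by ETS factors such as the myeloid and lymphoid factor PU.1. The second motif was added after these windows had been read, so nothing is read from its split between the genes. The first was present before Slfn5, Slfn8 and Slfn9 and in 3.46% of all 27025 genes with such windows. The second was present before Slfn1, Slfn2, Slfn3 and Slfn4 and in 22.2% of all genes. No window of the 7 genes held exact matches to both motifs, and none held TTCNNNGAA, the core of the gamma-activated site, which occurred before 8.13% of all genes. The window of Slfn14, another Schlafen gene of the cluster, held no exact match to any of these motifs. Near matches to the first motif were not counted, such as tttcactttt before Slfn4 and aaaactgaaa before Slfn1. A match is a run of letters and not a bound site. A stretch of 100 bases of each window is printed to show these matches, 5′ to 3′ on the gene's own strand and with the matched motif in capitals. It ends at the base before the start, except in Slfn5, where it ends 101 bases before the start. That start is the one of the longest Slfn5 transcript in GENCODE (chr11:82952102-82964840). A shorter annotated transcript (chr11:82951349-82952170) begins farther upstream and spans the Slfn5 window, so this window is before the start of the longest transcript only.
Slfn5 (chr11:82951902-82952001): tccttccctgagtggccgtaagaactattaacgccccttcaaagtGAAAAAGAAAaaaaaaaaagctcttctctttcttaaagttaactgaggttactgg
Slfn9 (chr11:82991831-82991930): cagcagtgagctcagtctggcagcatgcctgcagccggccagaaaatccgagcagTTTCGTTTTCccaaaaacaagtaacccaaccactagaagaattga
Slfn8 (chr11:83020811-83020910): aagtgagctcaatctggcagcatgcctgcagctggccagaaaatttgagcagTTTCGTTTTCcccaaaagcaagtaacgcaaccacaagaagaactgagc
Slfn2 (chr11:83065012-83065111): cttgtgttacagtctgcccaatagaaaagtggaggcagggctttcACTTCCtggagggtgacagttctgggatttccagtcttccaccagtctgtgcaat
Slfn1 (chr11:83116720-83116819): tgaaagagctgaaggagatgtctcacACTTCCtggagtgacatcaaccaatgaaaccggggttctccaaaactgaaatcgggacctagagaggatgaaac
Slfn4 (chr11:83175086-83175185): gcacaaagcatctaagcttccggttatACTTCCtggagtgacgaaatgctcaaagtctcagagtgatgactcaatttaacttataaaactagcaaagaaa
Slfn3 (chr11:83191230-83191329): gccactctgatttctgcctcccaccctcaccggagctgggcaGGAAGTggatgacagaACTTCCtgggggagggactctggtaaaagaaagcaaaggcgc

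In these stretches Slfn1 and Slfn4 share 15 unbroken bases around the ACTTCC motif, which lies 74 bases before the start of Slfn1 and 73 before that of Slfn4. Slfn9 and Slfn8 share up to 20 unbroken bases, and their response element match begins 45 bases before the start of Slfn9 and 48 before that of Slfn8. Slfn8 has a second annotated start, whose window holds the same match.

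Of the 7 Schlafen genes, 6 were higher in both tumor libraries than in all 3 spleen libraries as deposited, and Slfn3 was lower, although Slfn3 was higher when libraries were scaled on T cell markers and Slfn9 overlapped under 3 other scalings. The same holds for 46.6% and 23.8% of the 12979 tested genes, those with a mean of at least 1 TPM, which all 7 genes passed. Because the genes were chosen from this contrast, nothing is read from the count. The median change of the 7 genes was 2.35 on the log2(TPM + 1) scale, against 0.23 over all genes tested. For the same reason nothing is read from that gap. Their summed level was 3302 ± 239 TPM in tumor (SD, n = 2) and 241.6 ± 15.1 TPM in spleen (SD, n = 3), 13.7-fold higher in tumor. Without Slfn4 the sum was 1020 ± 7.68 TPM in tumor and 240.8 ± 15.1 TPM in spleen, 4.23-fold higher.

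**Figure D1:**
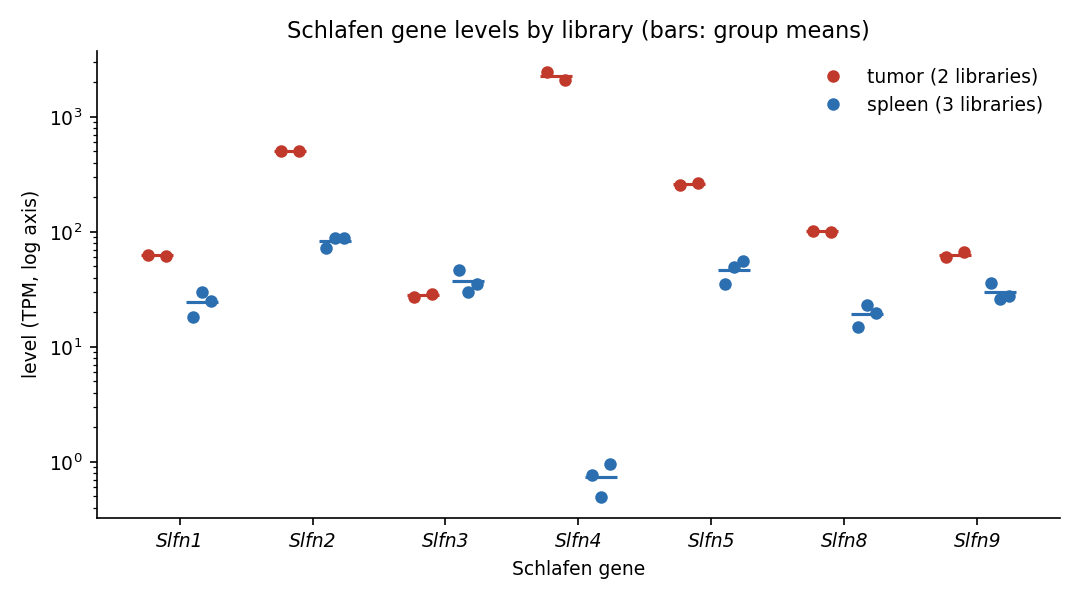
Level of each Schlafen gene in TPM on a log axis, with tumor libraries (2 points) left of spleen libraries (3 points) and bars at the group means. Slfn4 moves by far the most, and on this deposited scale 6 genes lie higher in tumor without overlap and Slfn3 lies lower, which turns when libraries are scaled on T cell markers.

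Slfn4 is an intermediate family member known in mice from activated macrophages and myeloid cells, where interferon and bacterial stimuli induce it. It was at 2457 and 2109 TPM in tumor replicates 2 and 3, against 0.77, 0.50 and 0.95 TPM in spleen replicates 1, 2 and 3. It was the highest of the 7 genes in both tumor libraries and the lowest in every spleen library. The log2 change on the log2(TPM + 1) scale was 10.36 ± 0.21 (SE). Among the 12979 tested genes, 1 had a larger log2 change. By mean level Slfn4 ranked 10 among all listed symbols in tumor. All 3 spleen values lay below the 95th percentile of 1134 olfactory receptor genes, which serve the sense of smell and stand in here for background. That percentile was 7.59 to 10.7 TPM in tumor and 10.6 to 16.2 TPM in spleen, so the spleen level of Slfn4 is within background. The median of these receptor genes was far lower, at 0.32 and 0.44 TPM in tumor and 0.47 to 0.74 TPM in spleen. The percentile is therefore a strict limit, and a level below it can still exceed most of these genes. Set against the highest of the spleen percentiles, 16.2 TPM, the lower tumor value was at least 130-fold higher. Since the change starts from background, it moved with the pseudocount, at 11.4 with a pseudocount of 0.1 and 7.73 with 10. In the same libraries Lyz2, the lysozyme gene of myeloid cells, was at 1207 and 1259 TPM in tumor, against 0.55 to 4.96 TPM in spleen.

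Slfn3, the gene next to Slfn4 and its closest relative in coding sequence, moved the other way, except when libraries were scaled on T cell markers. It was at 27.3 and 28.8 TPM in tumor, against 46.7, 30.2 and 35.0 TPM in spleen replicates 1, 2 and 3. The groups did not overlap, but the highest tumor value and the lowest spleen value were 28.8 and 30.2 TPM. The log2 change was -0.38 ± 0.21 (SE), and 76.5% of tested genes had a larger one. It was -0.21 without spleen replicate 1, the library with the highest value. Within each library, the ratio of Slfn4 to Slfn3 does not depend on how libraries are scaled. It was 90.1 and 73.3 in the tumor libraries and 0.016 to 0.027 in the spleen libraries.

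The short members Slfn2 and Slfn1 both stood higher in tumor. Slfn2 binds tRNAs and, in mouse T cells, protects them from cleavage by the stress-activated nuclease angiogenin. It was at 504 and 502 TPM in tumor, against 72.4, 88.6 and 88.4 TPM in spleen. The SD of the tumor values was 0.292% of their mean, and the log2 change was 2.59 ± 0.20 (SE). Slfn1, whose forced expression slows thymocyte growth in mice, was at 63.4 and 62.0 TPM in tumor, against 18.3, 30.1 and 25.0 TPM in spleen. Its log2 change was 1.35 ± 0.22 (SE). The ratio of Slfn2 to Slfn1 was 7.95 and 8.10 in tumor and 2.94 to 3.95 in spleen, so the balance within this pair also differed without overlap.

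The long members Slfn5 and Slfn8 changed by similar amounts, and Slfn9 by less. Slfn5, a nuclear protein that in human cells acts on interferon-driven transcription, was at 258 and 266 TPM in tumor, against 35.1, 49.6 and 55.5 TPM in spleen. Its log2 change was 2.49 ± 0.21 (SE). Slfn8, whose forced expression reduces T cell growth in mice, was at 101.5 and 99.9 TPM in tumor, against 14.9, 23.2 and 19.5 TPM in spleen, with a log2 change of 2.35 ± 0.21 (SE). Its value in spleen replicate 1 lay below the olfactory receptor percentile of that library, 16.2 TPM. Slfn9 was at 60.2 and 66.5 TPM in tumor, against 36.1, 26.0 and 27.9 TPM in spleen, with a log2 change of 1.07 ± 0.21 (SE). The ratio of Slfn8 to Slfn9, the most similar pair of long genes, was 1.687 and 1.502 in tumor and 0.41 to 0.89 in spleen. Slfn8 thus lay above Slfn9 in both tumor libraries and below it in all 3 spleen libraries.

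Among the spleen libraries the members did not vary together. As deposited, Slfn1, Slfn2, Slfn5 and Slfn8 were lowest in spleen replicate 1, whereas Slfn3 and Slfn9 were highest there. This can change with scaling: with equal totals Slfn2 was lowest in spleen replicate 2. The spread between libraries was 11.2% (Slfn2) to 30.8% (Slfn4) of the mean in spleen and 0.292% (Slfn2) to 10.8% (Slfn4) in tumor. With 2 tumor libraries that spread is itself poorly known.

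The order of the 7 genes by level differed between the tissues. In tumor it ran from Slfn4 through Slfn2, Slfn5, Slfn8, Slfn9 and Slfn1 to Slfn3, and Slfn9 and Slfn1 were the only neighbours in that order whose values overlapped. In spleen it ran from Slfn2 through Slfn5, Slfn3, Slfn9, Slfn1 and Slfn8 to Slfn4. There the values of the neighbours from Slfn5 to Slfn8 overlapped, and only Slfn2 at the top and Slfn4 at the bottom stood clear. Slfn3 lay above Slfn9 and Slfn1 above Slfn8 in 3 of 3 spleen libraries.

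The make-up of the family's summed level followed from these changes. Slfn4 made up 70.8% and 67.3% of the sum in tumor and 0.20% to 0.38% in spleen. Slfn2 made up 14.5% and 16.0% in tumor and 32.3% to 35.7% in spleen. With Slfn4 left out, Slfn2 held 49.7% and 48.9% in tumor and 32.4% to 35.8% in spleen, and Slfn5 held 25.4% and 26.0% in tumor and 15.7% to 22.1% in spleen. On the same base Slfn3 held 2.69% and 2.81% in tumor and 12.2% to 20.9% in spleen, and Slfn9 held 5.94% and 6.49% in tumor and 10.5% to 16.1% in spleen. These shares are within a library and do not depend on scaling.

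**Figure D2:**
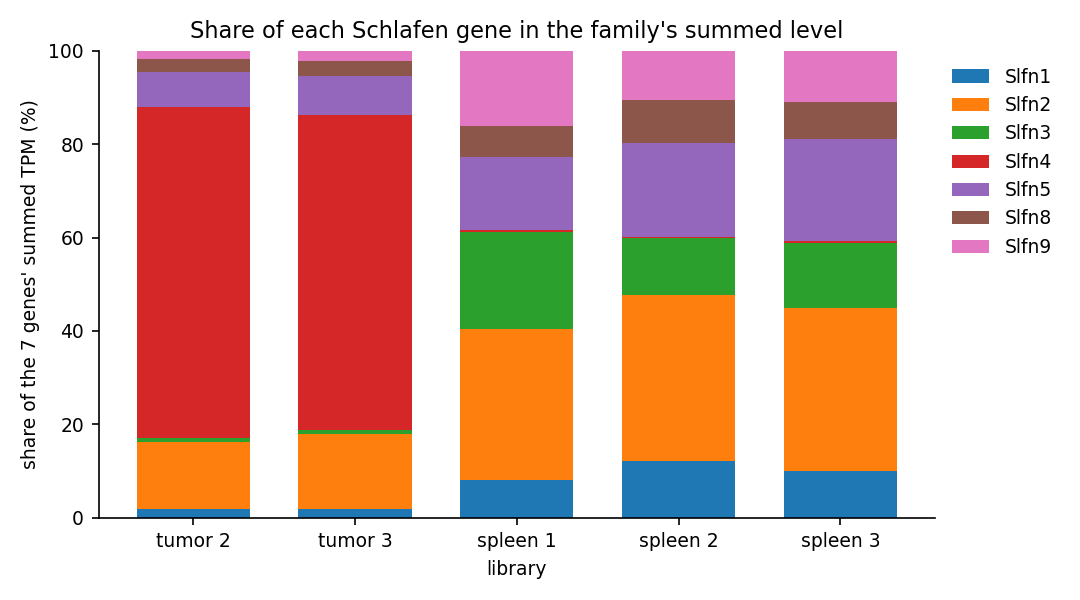
Share of each Schlafen gene in the summed TPM of the 7 genes, in percent, for the 2 tumor libraries and then the 3 spleen libraries. Slfn4 takes 70.8% and 67.3% of the tumor bars and is hardly visible in spleen, where Slfn2 is the largest part.

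Because TPM are shares of a total, the size of each change depended on the scaling. Listed genes summed to 59.6% and 56.9% of the full TPM scale in tumor and to 26.9% to 36.0% of it in spleen. The median change of all tested genes was 0.23 as deposited, lay between -0.60 and -0.06 under 4 other scalings (median ratios, equal totals, the upper quartile, and totals without the top 20 genes), and was 2.15 when libraries were scaled on the 13 T cell markers. Rises made up 69.3% of all called genes as deposited, 26.6% to 52.5% under the 4 scalings and 99.1% on T cell markers. Over the same 4 scalings the change of Slfn4 lay between 9.56 and 10.1, that of Slfn2 between 1.58 and 2.25, that of Slfn5 between 1.48 and 2.15 and that of Slfn8 between 1.37 and 2.02. Slfn1 lay between 0.36 and 1.01. Slfn9 lay between 0.07 and 0.73, and its groups overlapped under all of these but median ratios. Slfn3 lay between -1.36 and -0.71 there, but at 1.78 when scaled on T cell markers, where all 7 genes were higher in tumor. A scaling moves the log2 changes of all genes by nearly the same amount, so a gene's place relative to their median is set by construction and shifts only through the pseudocount. The change minus that median lay between -0.76 and -0.37 for Slfn3, between 0.68 and 1.08 for Slfn9, between 0.96 and 1.36 for Slfn1 and at 1.97 or more for the other 4 genes.

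**Figure D3:**
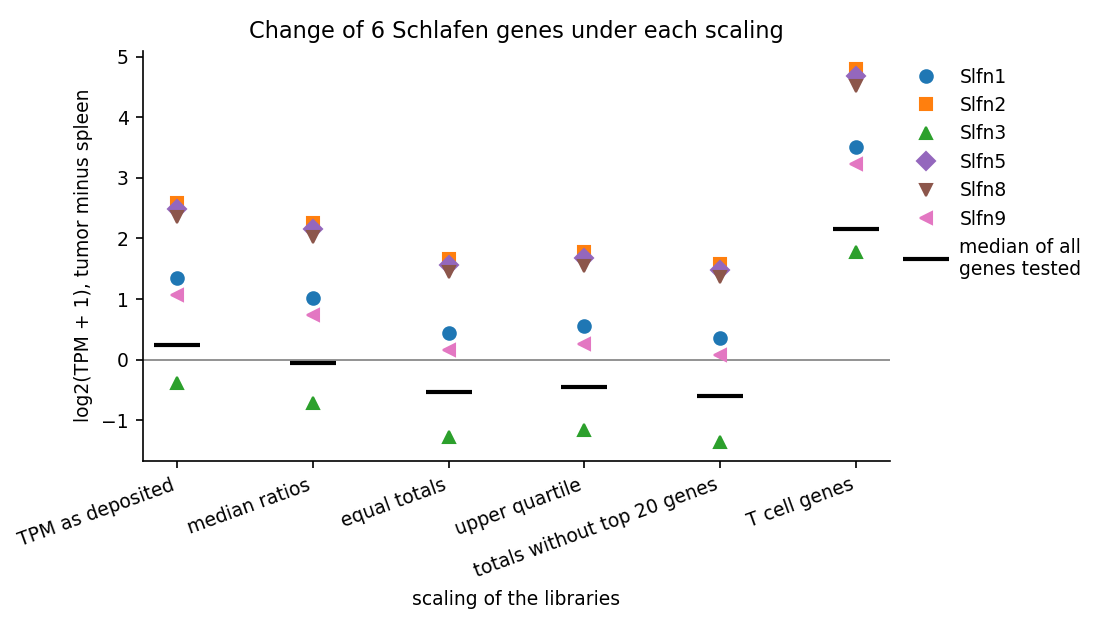
Change of 6 Schlafen genes on the log2(TPM + 1) scale, tumor minus spleen, under 6 scalings of the libraries; black bars give the median of all tested genes and Slfn4 (9.56 to 12.0) is left out. All genes shift together, and the sign of Slfn3 turns when scaled on T cell genes.

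Similar sequence limits how well some members can be told apart by short reads. Of all distinct 31-base words in the annotated transcripts, 31 being kallisto's default word length, 30.0% in Slfn3 and 20.1% in Slfn4 also occur in transcripts of another gene, most often in each other. The share was 26.8% in Slfn8 and 23.6% in Slfn9, 10.3% in Slfn2, 4.92% in Slfn5 and 1.96% in Slfn1. Over 75 bases, the read length, it was at most 6.99% (Slfn8). The partners of Slfn8 and Slfn9 include the pseudogene Slfn10-ps, which is not analysed here. Over 75 bases the top partner of Slfn3 and Slfn4 was the pseudogene Gm11427 (3.73% and 1.34% of words), which is not listed. How far reads of Slfn4 entered the lower Slfn3 values in tumor was not tested. Levels of Slfn3, Slfn4, Slfn8 and Slfn9 are therefore less certain than those of Slfn1 and Slfn5, since no source used here says how the authors divided shared reads. Antisense genes overlap Slfn5 (Slfn5os) and Slfn2 (Gm20234). The libraries were stranded, but whether strand was used in quantification is not stated, so reads of each pair cannot be told apart here.

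Of the other family genes, Slfn14, a member known for its role in platelet and red cell precursors, was at 0.10 and 0.26 TPM in tumor, against 0.25 to 0.35 TPM in spleen. Slfnl1, a more distant relative, was listed at 0.15 and 0 TPM in tumor and at 0.03 to 0.13 TPM in spleen. Both lay within background in every library, and neither passed the filter.

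The genes that flank the cluster changed in both directions as deposited. Of 11 protein-coding genes among the 6 nearest on each side, 10 are listed and 5 passed the filter. By limma's test with Benjamini-Hochberg adjustment at 0.05, 2 of the 5 rose in tumor, 2 fell and 1 was not called, against 40.9% rises and 18.1% falls, 59% called in all, among the 12979 genes tested. Ap2b1, an adaptor subunit of clathrin-coated vesicles, was at 44.1 ± 6.42 TPM in tumor and 18.6 ± 2.99 TPM in spleen (SD, n = 2 and 3), and its log2 change of 1.21 ± 0.21 had a limma adjusted p of 2.8e-06. Rffl, a ubiquitin ligase gene, rose by 0.71 ± 0.21 on that scale (limma adjusted p = 0.00356). Nle1, a ribosome assembly gene, was at 6.34 ± 0.50 TPM in tumor and 12.4 ± 0.67 TPM in spleen, and its log2 change of -0.87 ± 0.21 had a limma adjusted p of 0.000295. Rad51d, of homologous recombination, had a change of -0.53 ± 0.22 (limma adjusted p = 0.032), a call lost without tumor replicate 2 (limma adjusted p = 0.439), spleen replicate 2 (limma adjusted p = 0.0806) or spleen replicate 3 (limma adjusted p = 0.0693). Lig3, a DNA ligase gene, had a change of 0.03 ± 0.21 and was not called. Rad51d lay below the olfactory receptor percentile in all 5 libraries, Rffl, Nle1 and Lig3 in 4 of 5 and Ap2b1 in 1 of 5. The split depended on scaling, with 0 rises and 3 falls with equal totals and 5 rises when scaled on T cell markers. On T cell markers 12359 of the 12979 tested genes rose.

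**Figure D4:**
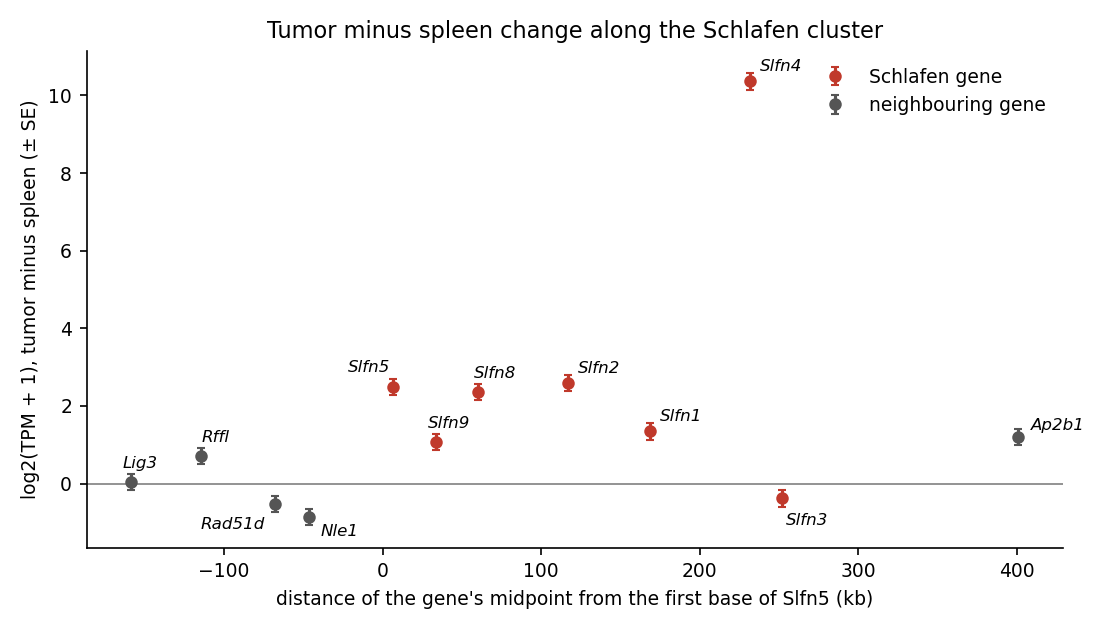
Change on the log2(TPM + 1) scale, tumor minus spleen, with SE bars, against the distance of each gene's midpoint from the first base of Slfn5 in kb, for 7 Schlafen genes (red) and 5 flanking genes that passed the filter (grey). On this deposited scale Slfn4 at 10.36 and Slfn3 at -0.38, which is positive when scaled on T cell markers, lie next to each other, and the flanking genes lie between -0.87 and 1.21.

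Genes of the interferon pathway, which in mice induces Schlafen genes, were mostly higher in tumor. All 24 listed genes of a 25-gene interferon response list rose (median log2 change 4.43, range 1.81 to 8.80), and none fell at an unadjusted limma p below 0.05 either. Among all genes tested, 40.9% rose and 18.1% fell. The 24 genes rose under every scaling. Of the 12979 tested genes, 2648 rose with totals computed without the top 20 genes and 12359 when scaled on T cell markers. Cxcl10, a chemokine gene, was at 1062 ± 30.9 TPM in tumor and 1.41 ± 0.46 TPM in spleen (SD, n = 2 and 3; log2 change 8.80, limma adjusted p = 8.26e-36). Rsad2, which encodes the antiviral protein viperin, was at 614 ± 55.5 TPM in tumor and 2.57 ± 0.86 TPM in spleen (log2 change 7.46, limma adjusted p = 1.56e-32). The spleen levels of both lay below the olfactory receptor percentile, so these changes also start from background. Of 12 genes of interferon receptors, kinases and transcription factors 10 rose and 1 fell (median 2.17). The counts were 9 and 3 once the totals left out the top 20 genes, and all 12 rose when scaled on T cell markers. Irf7, an interferon-induced transcription factor gene, was at 974 ± 1.02 TPM in tumor and 21.1 ± 7.33 TPM in spleen (log2 change 5.53, limma adjusted p = 1.68e-26). Stat2, a subunit of the factor that binds the response element, was at 147.8 ± 7.95 TPM in tumor and 11.2 ± 2.05 TPM in spleen (log2 change 3.62, limma adjusted p = 1.49e-20). Levels lay below the olfactory receptor percentile in spleen replicates 1 and 3 for Stat2 and in spleen replicate 1 for Irf7. Irf3, a transcription factor gene upstream of interferon, was at 28.6 ± 2.80 TPM in tumor and 41.8 ± 8.27 TPM in spleen (log2 change -0.52, limma adjusted p = 0.0332). Its change was 1.65 when scaled on T cell markers, and its fall was lost without spleen replicate 2 (limma adjusted p = 0.0516) or 3 (limma adjusted p = 0.0906) or tumor replicate 2 (limma adjusted p = 0.284) or 3 (limma adjusted p = 0.0918). The macrophage marker sums of 7110 and 7620 TPM belong to the same tumor libraries.

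Genes of T cell quiescence, the state that Slfn2 maintains in mice, moved in both directions. Of the 13 that passed the filter, 5 were called higher, 4 were called lower and the other 4 were not called, with a median change of 0.01. Among all 12979 genes tested, 40.9% were called higher and 18.1% lower, so the share of rises was near that of all genes. Btg2, which restrains proliferation, was at 295 ± 16.0 TPM in tumor and 30.5 ± 1.94 TPM in spleen (log2 change 3.23, limma adjusted p = 3.97e-19). Tob2, of the same antiproliferative family, was at 30.0 ± 4.37 TPM in tumor and 5.96 ± 0.81 TPM in spleen (log2 change 2.16, limma adjusted p = 9.26e-13). Foxo3, Tob1 and Btg1 were the other 3 that rose, and Foxo1 and Foxp1, transcription factor genes of naive T cells, the other 2 that fell. Pdcd4, an inhibitor of translation, was at 9.42 ± 0.38 TPM in tumor and 74.6 ± 17.7 TPM in spleen (log2 change -2.84, limma adjusted p = 2.37e-16). Bach2, a transcription factor gene of resting lymphocytes, was at 6.68 ± 2.06 TPM in tumor and 43.5 ± 16.6 TPM in spleen (log2 change -2.50, limma adjusted p = 3.19e-13), a call lost when scaled on T cell markers (limma adjusted p = 0.121). Tob1 and Tob2 in spleen, and Bach2 and Foxo1 in tumor, lay below the olfactory receptor percentile of each library. Foxo1 and Foxo3 in spleen replicates 1 and 3 and Pdcd4 in tumor replicate 3 did so too. These changes therefore start or end partly at background, and that of Foxo1 lies mostly within it. With equal totals 4 of the 13 genes rose and 8 fell, and scaled on T cell markers 10 rose and 1 fell. Over all 12979 tested genes, 2724 rose and 6662 fell with equal totals, and 12359 rose and 106 fell on T cell markers. The T cell marker sums in the same libraries were 259 to 334 TPM in tumor and 1080 to 1460 TPM in spleen.

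Slfn2 protects tRNAs from cleavage. Of 6 genes of tRNA cleavage and modification, 3 rose and none fell, also at an unadjusted p below 0.05 in limma. Among all genes tested, 40.9% rose and 18.1% fell, so with only 6 genes nothing is read from these counts. The macrophage and T cell marker sums given above belong to the same libraries, and their part in these values was not tested. Rnh1, the inhibitor of angiogenin and related nucleases, was at 200.2 ± 7.51 TPM in tumor and 8.65 ± 3.01 TPM in spleen (log2 change 4.43, limma adjusted p = 3.18e-23). In spleen replicates 1 and 3 Rnh1 lay below the olfactory receptor percentile. Ang, the angiogenin gene, was at 7.15 ± 1.02 TPM in tumor and 0.82 ± 0.28 TPM in spleen, below the olfactory receptor percentile in every library but tumor replicate 2 (log2 change 2.17, limma adjusted p = 3.14e-12). With equal totals 2 of the 6 genes rose and 3 fell, and scaled on T cell markers 6 rose, as did 12359 of all 12979 tested genes.

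**Figure D5:**
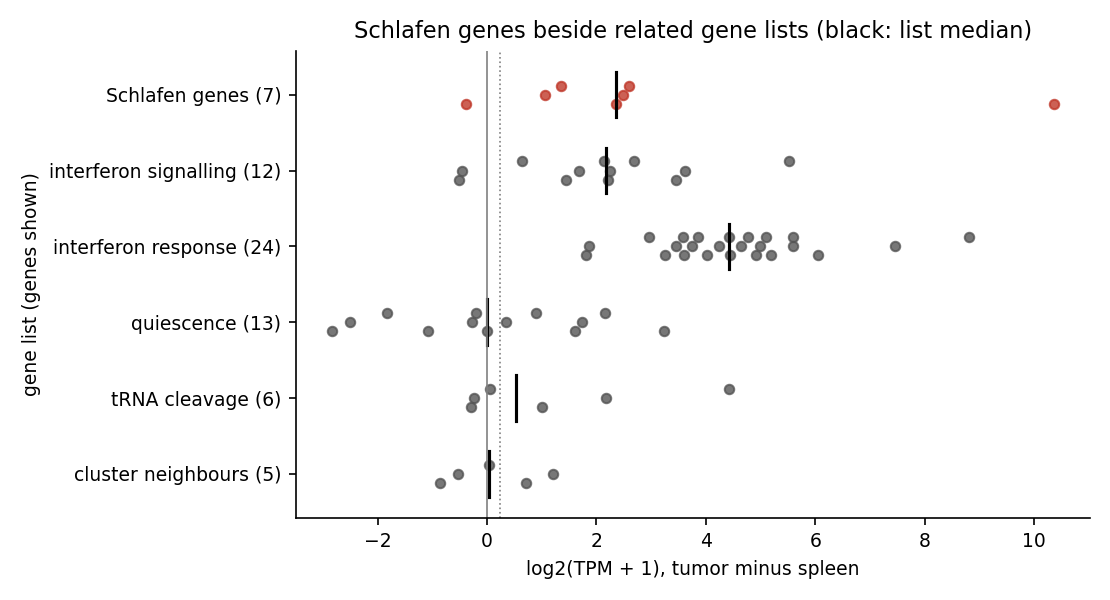
Change on the log2(TPM + 1) scale, tumor minus spleen, of single genes (points) in the Schlafen family (red) and in 5 related lists (grey), with black bars at the list medians, a solid line at 0 and a dotted line at the median of all tested genes. The Schlafen genes other than Slfn4 and Slfn3 span 1.07 to 2.59, below the median of the interferon response list at 4.43.

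The genes with the pattern most like each member were found by the root mean square difference of log2(TPM + 1), centred on each gene's mean, over the 5 libraries. For Slfn4 they were Il1b (difference 0.33), Ccl2 (0.35) and Thbs1 (0.38), and no gene came within 0.2 of it. For Slfn2 they were Fam111a, B2m and Mapkapk3, and for Slfn5 Tmem140, Herc6 and Gtf2f1, at differences of 0.02 to 0.10. H2-T22 and Sfmbt1 were among the 3 most like Slfn8, both at 0.04. For Slfn1 they were Faim, Rab24 and Nedd8, and for Slfn9 Ttyh2, Grk5 and Sec24d, at 0.02 to 0.07. Ttyh2 and Grk5 lay below the olfactory receptor percentile in every library. For Slfn3 they were Olfr1233, Slc38a5 and Zim1, at 0.03 to 0.04, all 3 of them at background level and all highest in spleen replicate 1, as Slfn3 was. The patterns rest mainly on 1 contrast between 2 tissues: 147 genes for Slfn5 up to 1298 for Slfn3 lay within 0.2 of these 6 members. Among the members themselves Slfn2 and Slfn5 were closest (0.13), followed by Slfn5 and Slfn8 (0.15), and Slfn3 and Slfn4 were farthest apart (5.27).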

How the data were processed

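The authors deposited 1 table per library with 1 value per gene symbol. No header names the unit: the deposited values are taken as TPM, the unit kallisto reports, since they carry decimals and each table totals 26.9% to 59.6% of the full TPM scale. Per the submitters' processing notes, kallisto, DESeq2 and the build mm10 were used, without versions or the role of each. Per the labels' protocols, RNA from 300000 cells gave stranded, rRNA-depleted libraries with paired 75-base reads. TPM keep no depth, so read depth is unknown and no counting interval is given.

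Values were analysed as log2(TPM + 1) for the 12979 genes averaging 1 TPM or more, with limma 3.58.1 in R 4.3.3, a single tissue term, a trend of variance on mean level and Benjamini-Hochberg adjustment over all tested genes at 0.05. limma draws each gene's variance toward that trend, so SE and p-values rest largely on spread shared by all tested genes. The SE of the listed genes ran only from 0.20 to 0.28. Very small p-values therefore depend on the setting: for Cxcl10 the limma adjusted p was 8.26e-36 as deposited and 9.18e-08 scaled on the upper quartile. The fit was tested on simulated data. The 7 Schlafen genes got no p-value; their SE are limma's. The members and gene lists were chosen with earlier results of these data known. Genes named from lists are the 2 largest called rises and the 2 largest called falls; tested neighbours and, for each member, the 3 genes most like it are also named, except 2 genes that are not reported here. The markers Cd4 and Lyz2 and the remaining called quiescence genes were named after their values were seen. Mx2 and 1 neighbour, 1700020L24Rik, are not analysed here. Coordinates are from GENCODE M21 (GRCm38), sequences from RefSeq.

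Alternatives were 5 scalings, pseudocounts of 0.1 and 10, no filter or a mean of at least 5 TPM, a threshold of 0.01, a block for replicate number, and leaving out each library. With 1 tumor library left, its spread is taken to equal that of spleen.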

Additional observations from a re-analysis of the deposited data

How the results depend on the processing

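Slfn3 was at 1.78 when scaled on T cell genes, so 0 Schlafen genes were then lower without overlap, and the median of all genes was 2.15. The interferon response list gave 24 rises and 0 falls under every setting run. Of the interferon signalling list, where 1 gene fell, 2 fell by median ratios, with equal totals, on the upper quartile, at a mean of at least 5 TPM and with the replicate block; 3 fell with totals computed without the top 20; and 0 fell when scaled on T cell genes, with no filter on low values and at a threshold of 0.01. The falls lay between 0 and 2 on leaving out a library. In the quiescence list, where 5 rose and 4 fell, 7 fell by median ratios, 8 fell under each of the next 3 scalings (equal totals, upper quartile, totals without the top 20 genes), and 10 rose and 1 fell on T cell genes. In the tRNA list, where 3 rose and 0 fell, 1 fell by median ratios, 3 under each of those 3 scalings, and 6 rose on T cell genes. Among genes next to the cluster, where 2 rose and 2 fell, equal totals, and totals without the top 20, gave 0 rises and 3 falls; 1 rose by median ratios; 1 rose and 3 fell on the upper quartile; 5 rose and 0 fell on T cell genes; and 1 fell with no filter, at a mean of at least 5 TPM and at 0.01. Their falls lay between 1 and 2 on leaving out a library. The sign turned for Lig3 (-0.80 with equal totals, -0.70 on the upper quartile, -0.87 without the top 20, -0.28 by median ratios, -0.071 without tumor replicate 2, and -0.087 both without spleen replicate 1 and with the replicate block), Rffl (-0.084 with equal totals, -0.15 without the top 20) and, on T cell genes, Irf3 (1.65), Rad51d (1.19) and Nle1 (1.14). The cause was not tested. Without tumor replicate 2, all tested genes gave 4756 rises and 1209 falls, against 5309 and 2347. The counts were 4322 and 3906 by median ratios, 2724 and 6662 with equal totals, 2648 and 7321 without the top 20, 3078 and 6366 on the upper quartile, 12359 and 106 on T cell genes, 4387 and 1456 at a mean of at least 5 TPM and 4680 and 1552 at 0.01.

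Replicate numbers 2 and 3 occur in both tissues, and nothing in the labels says that they pair the libraries. Deviations from the group means correlated across genes at 0.20 for number 2 and 0.07 for number 3. With the replicate number as a block, 4877 genes rose and 2013 fell. Precision is limited by 2 tumor libraries and an unknown depth. Levels below the olfactory receptor percentile cannot be told from background by that limit, which is strict. The median of the receptor genes was 0.32 to 0.74 TPM.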
